A study of Homo sapiens with 45 samples.

Results

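The genes described here are 44 genes of DNA replication and the S phase, taken from the 23045 genes of the deposited tables as a list of names. The list holds 3 origin licensing genes (CDC6, CDT1, GMNN), the 6 subunits of the MCM helicase, 4 GINS subunits, 4 subunits of DNA polymerase alpha and primase, 5 of polymerases delta and epsilon, 7 clamp and clamp loader genes, 3 RPA subunits, 4 genes of lagging-strand maturation and uracil repair, 3 of nucleotide supply, 4 of chromatin and histone mRNA, and E2F1. All 44 had a row in both tables, and each reached a mean of 10 CPM or more over the 4 groups (CPM, counts per 1000000 counts).

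Each of the 45 samples was a single cell of the established line H1, human embryonic stem cells that were grown on Matrigel in mTESR1 and labelled p40. Live or fixed cells were each taken either through FRISCR, a procedure that recovers RNA from fixed single cells, or through lysis with Triton X-100, a mild detergent, alone. The groups were 12 fixed FRISCR cells, 15 live FRISCR cells, 7 fixed Triton cells and 11 live Triton cells; fixed cells were labelled DAPI+ and live cells DAPI-, and the fixative is not given for the cultured cells. A code in the titles split the cells into 2 library sets (6 and 6 fixed FRISCR, 8 and 7 live FRISCR, 4 and 3 fixed Triton, 5 and 6 live Triton cells). Separate cultures are not named in the labels. Each group was therefore treated as 1 sample, with no p-value, and every interval covers counting error only.

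DNA replication starts at origins that are licensed in G1, when CDC6 and CDT1 load the MCM helicase onto DNA, and GMNN (geminin) blocks CDT1 afterwards. In the S phase the helicase is activated with GINS, polymerase alpha and primase lay down primers, and polymerases epsilon and delta extend the strands, held on DNA by the sliding clamp PCNA, which the RFC complex loads. RPA coats the single strands, FEN1 and LIG1 join the Okazaki fragments, ribonucleotide reductase and thymidylate synthase supply nucleotides, and the CAF-1 subunits put histones behind the fork. Many of these genes are known targets of E2F factors, and pluripotent stem cells are known for a short G1 and a large share of cells in the S phase.

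Promoters of 37 of the 44 genes were found in the RefSeq table (GRCh38.p14), as 300 bases that run from 250 before to 50 after the transcript start; MCM4, MCM5, GINS4, POLD3, DSCC1, RPA2 and RPA3 have no entry there. These were searched on both strands for the E2F strings TTTGGCGC, TTTCCCGC, TTTCGCGC and TTTGCCGC, which can overlap each other. A string was found in 19 of the 37 promoters (51.4%), against 3.33% of all 27305 promoters of that length and 29.5% of 61 promoters of other replication genes that are not in the list. Among promoters of at least 60% GC, the share was 50.0% for 32 of the listed genes and 4.97% for all. CCAAT, the box bound by NF-Y, was found in 56.8% of the 37 promoters and 35.7% of all. Below are the 100 bases before the start of 9 genes, with E2F strings in capitals. They are examples from several roles. Shown are the licensing factor CDT1, 2 helicase subunits and a GINS subunit, POLA2, the clamp PCNA, the chromatin genes UHRF1 and CHAF1B, and E2F1 itself. All but CHAF1B hold a string here, so they do not stand for the 37 promoters, of which 19 held one. The regions, each read 5′ to 3′ on the strand of its gene, are chr16:88803689-88803788 (plus) for CDT1, chr2:135876444-135876543 (minus) for MCM6, chr7:100101398-100101497 (minus) for MCM7, chr16:85688955-85689054 (minus) for GINS2, chr11:65261862-65261961 (plus) for POLA2, chr20:5126623-5126722 (minus) for PCNA, chr19:4909401-4909500 (plus) for UHRF1, chr20:33686386-33686485 (minus) for E2F1 and chr21:36385292-36385391 (plus) for CHAF1B.
CDT1: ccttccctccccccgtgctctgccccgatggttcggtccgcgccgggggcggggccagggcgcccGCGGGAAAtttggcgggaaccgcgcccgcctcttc
MCM6: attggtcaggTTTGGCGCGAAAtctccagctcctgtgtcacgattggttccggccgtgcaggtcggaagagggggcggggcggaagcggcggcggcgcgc
MCM7: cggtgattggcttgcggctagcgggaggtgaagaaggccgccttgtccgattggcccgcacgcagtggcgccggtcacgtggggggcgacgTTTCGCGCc
GINS2: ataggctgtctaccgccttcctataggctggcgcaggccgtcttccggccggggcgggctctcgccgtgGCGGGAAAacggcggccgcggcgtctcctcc
POLA2: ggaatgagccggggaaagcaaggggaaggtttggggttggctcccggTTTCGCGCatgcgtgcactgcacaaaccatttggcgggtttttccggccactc
PCNA: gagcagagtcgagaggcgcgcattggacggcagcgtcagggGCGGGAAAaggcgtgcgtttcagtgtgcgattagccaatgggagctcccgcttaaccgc
UHRF1: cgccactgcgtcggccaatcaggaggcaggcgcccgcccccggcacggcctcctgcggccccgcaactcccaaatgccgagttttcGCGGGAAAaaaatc
E2F1: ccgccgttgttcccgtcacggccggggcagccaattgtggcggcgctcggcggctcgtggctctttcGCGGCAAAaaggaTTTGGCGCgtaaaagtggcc
CHAF1B: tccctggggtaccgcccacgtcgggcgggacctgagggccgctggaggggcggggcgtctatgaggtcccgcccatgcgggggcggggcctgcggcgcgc

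In this stretch the string of MCM7 began 9 bases before the start, that of UHRF1 14, GINS2 31, CDT1 35, POLA2 53 and PCNA 59 bases before it. MCM6 held 2 overlapping strings in this stretch, and E2F1 held 2 that were apart. In CHAF1B none of the 4 strings was found in these 100 bases or in the whole window. A match is a description of letters, not of binding.

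Whole-cell values set the frame for the genes. Total counts ranged from 3388417 to 6594043 per cell over all groups. With every cell thinned to 1000000 counts, a median of 8917 genes was detected in fixed FRISCR, 9063 in live FRISCR, 5080 in fixed Triton and 9653 in live Triton cells. Rows named as rRNA and 5 other abundant rows held 42.5% of counts in the median fixed Triton cell, against 5.54% in fixed FRISCR, 5.20% in live FRISCR and 11.5% in live Triton cells. All 12 pluripotency markers reached 10 CPM in each group other than fixed Triton, where 10 did, and the endoderm and mesoderm list (7 genes) stayed below 10 CPM in all groups. The labels' extraction protocol describes cortical tissue; of 10 neural progenitor markers 3 to 5 reached 10 CPM per group, with SOX1, HES5 and HOPX at 0 throughout and summed medians of 415, 700, 262 and 605 CPM in fixed FRISCR, live FRISCR, fixed Triton and live Triton cells. PTPRZ1 was the highest neural progenitor marker in each group, with 386 CPM in live FRISCR and 124 CPM in fixed Triton cells. Of 6 neuron markers 3 reached 10 CPM in live FRISCR cells and 2 in each other group. TUBB3 had 204 CPM in live FRISCR and 176 CPM in live Triton cells. Of 7 fibroblast markers 3 reached 10 CPM in each group, and COL3A1, DCN, LUM and POSTN were at 0. PRIM2 has a near-identical partial copy in the genome and TYMS overlaps ENOSF1 on the other strand, so reads of these genes could be split or shared.

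Levels between genes were compared in the authors' TPM, which are per length. In live FRISCR cells PCNA had the highest level of the list (431 ± 166 TPM, SD over 15 cells), ahead of GMNN at 357 ± 114, MCM3 at 306 ± 78.3 and MCM7 at 305 ± 96.8 TPM. In live Triton cells the top genes were MCM3 at 368 ± 116 TPM (SD over 11 cells), PCNA at 304 ± 117, MCM7 at 291 ± 131 and GMNN at 288 ± 91.4 TPM. In both groups the other 3 lay within 1 SD of PCNA. At the low end, POLE, the catalytic subunit of polymerase epsilon, had 8.71 ± 8.35 TPM in live FRISCR and 5.04 ± 4.47 TPM in live Triton cells. E2F1, a transcription factor, had 8.80 ± 8.45 TPM in live FRISCR and 8.63 ± 16.2 TPM in live Triton cells.

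Subunits of one complex differed in level in both kinds of live cells. The 6 MCM subunits, which form the helicase ring in equal parts, ran from 69.4 TPM (MCM6) to 306 TPM (MCM3) in live FRISCR cells and from 61.1 (MCM6) to 368 TPM (MCM3) in live Triton cells. GINS2 had 193 TPM and GINS4 19.7 TPM in live FRISCR cells, a ratio of 9.79. In live Triton cells GINS2 had 205 TPM and GINS3, the lowest there, 22.1 TPM. RFC1, the large clamp loader subunit, was the lowest of its complex in both (31.9 TPM in live FRISCR, 42.2 TPM in live Triton cells). The 3 RPA subunits lay closer together, at 101 to 154 TPM in live FRISCR cells. RRM1 and RRM2, the subunits of ribonucleotide reductase, had 197 ± 75.9 and 183 ± 90.7 TPM in live FRISCR cells, which is less apart than the spread over cells.

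**Figure D1:**
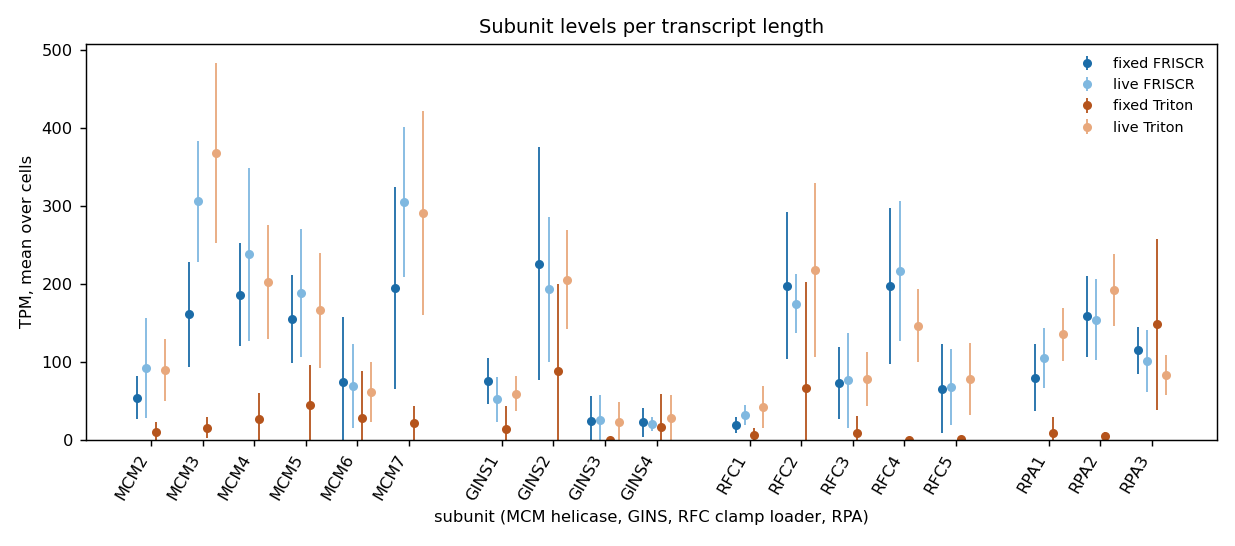
Mean TPM over cells (points) and SD over cells (bars, cut at 0) of the subunits of the MCM helicase, GINS, RFC and RPA, with the 4 groups side by side for each subunit. In fixed Triton cells most subunits sit below the other groups, while RPA3 averages 148 TPM there, against 83.1 TPM in live Triton cells.

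**Figure D2:**
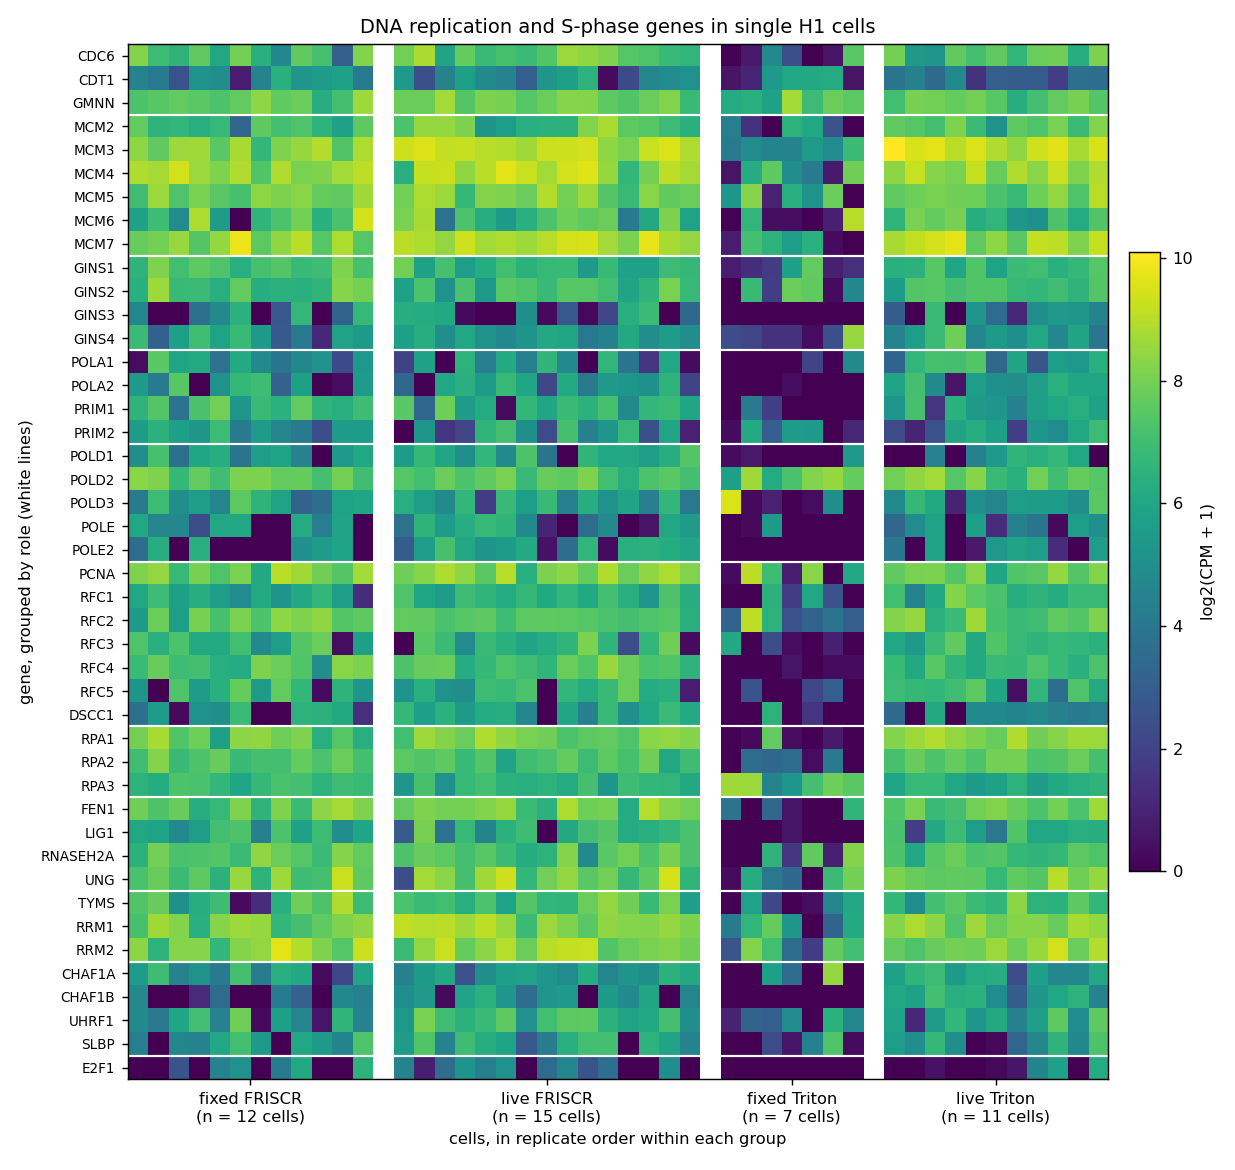
Level of each of the 44 genes (rows, by role) in each of the 45 cells (columns, by group), as log2(CPM + 1) in colour. The 7 fixed Triton cells hold many dark fields, with different genes bright in different cells.

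The list as a whole held 0.627% of counts in the median fixed FRISCR cell (0.459% to 0.767% over 12 cells), against 0.700% in live FRISCR cells (0.477% to 0.908% over 15). In fixed Triton cells it took 0.193% (0.139% to 0.334% over 7 cells), against 0.680% in live Triton cells (0.498% to 0.844% over 11). The ranges of fixed and live FRISCR cells overlapped over most of their width, whereas every fixed Triton cell lay below every live Triton cell. With the rRNA-named and abundant rows left out of the totals, the fixed Triton median was 0.344%, with a highest cell of 0.503%, against a lowest of 0.592% in live Triton cells.

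At 1000000 counts a median of 41.5 of the 44 genes was detected in fixed FRISCR cells (35 to 44), against 42 in live FRISCR cells (39 to 43). The corresponding values were 23 (16 to 32) in fixed Triton cells, against 42 (37 to 44) in live Triton cells, or 29 and 43 without thinning. For scale, 46.3% of the 8543 genes that reached a mean of 10 CPM over the groups were detected in the median fixed Triton cell, against 52.3% of the listed genes. In live Triton cells these shares were 88.1% and 95.5%, so detection was lower in fixed Triton cells for genes as a whole and for the list alike. Counts were found in every cell for 33 genes in fixed FRISCR, 31 in live FRISCR, 10 in fixed Triton and 37 in live Triton cells. GINS3, POLE2, CHAF1B and E2F1 had no count in any fixed Triton cell.

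**Figure D3:**
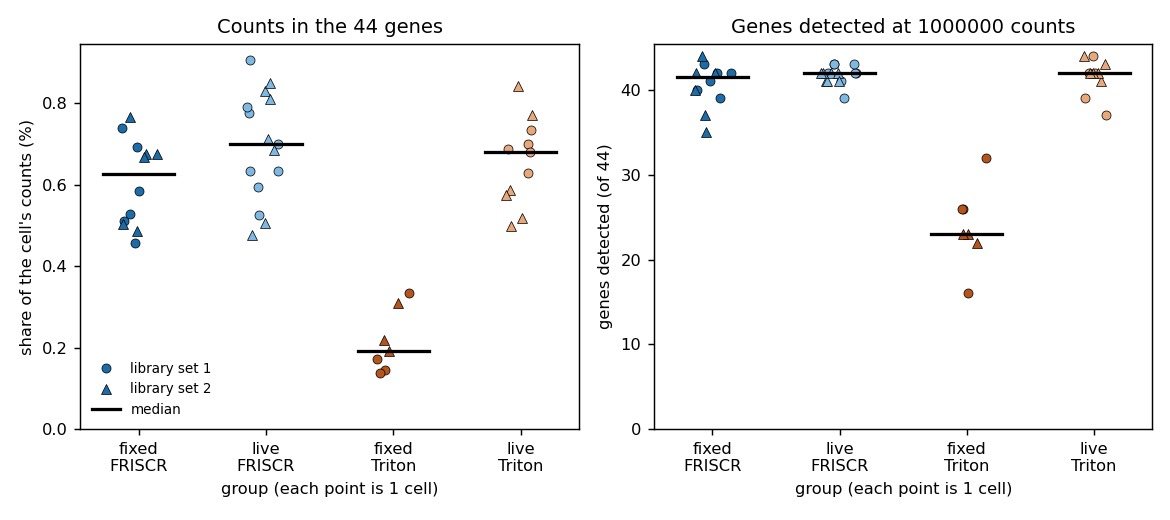
Share of each cell's counts in the 44 genes (left, %) and number of the 44 genes detected at 1000000 counts (right), by group; points are cells, shapes mark the library set and black lines are medians. Fixed Triton cells (medians 0.193% and 23 genes) lie below live Triton cells (0.680% and 42 genes), while both FRISCR groups overlap.

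The first comparison asks whether replication transcripts keep their levels when fixed cells go through FRISCR. Most of them stayed within 2-fold of live cells: 3 of the 44 genes were lower by over 2-fold in fixed FRISCR cells and 0 were higher by as much, against a background of 7.85% lower and 3.84% higher among 8540 genes. The 3 genes make 6.82% of the list, which is near the background. The median log2 fold of the list was -0.12 (-0.26 and -0.18 in the library sets), against -0.02 for all genes, and 25 genes lay below 0. CHAF1B alone of the 3 was lower by over 2-fold in both sets as well (background 3.07%). For 17 of the 44 the library sets differed in sign. In both sets 18 of the 44 were below 0 (background 28.9%) and 9 above 0 (background 27.2%). No listed gene had fixed and live FRISCR cells without overlap (background 0% in either direction).

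CHAF1B, the middle subunit of the histone chaperone CAF-1, had the lowest fold. It had 0, 4.67 and 26.3 CPM (lowest, median and highest of 12 cells) in fixed FRISCR cells, against 0, 37.2 and 85.6 CPM in live FRISCR cells. Counts were present in 7 of 12 fixed and 13 of 15 live FRISCR cells, and the ranges overlapped. The summed level was 3.83-fold lower (3.47 to 4.24, counting interval), with a log2 fold of -2.77 and -1.25 in the library sets. CHAF1A, the large subunit of the same complex, had a log2 fold of 0.17, with opposite signs in the sets (0.68 and -0.39).

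POLE2, the second subunit of polymerase epsilon, had 0, 5.67 and 79.7 CPM in fixed FRISCR cells, against 0.232, 60.9 and 140 CPM in live FRISCR cells. It was present in 6 of 12 fixed cells and in 15 of 15 live cells, and its summed level was 2.35-fold lower (2.21 to 2.50). The sets gave log2 folds of -0.92 and -1.58. UHRF1, which brings the maintenance methyltransferase to hemimethylated DNA, had 0.176, 25.1 and 238 CPM in fixed FRISCR cells, against 32.0, 109 and 266 CPM in live FRISCR cells. Its summed level was 2.10-fold lower (2.01 to 2.19), but 1 fixed cell held 33.5% of the fixed sum, and the sets differed in size (-0.51 and -1.99). With DESeq2 size factors UHRF1 fell short of the 2-fold line, at a log2 fold of -0.97.

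Of the 6 helicase genes 0 passed 2-fold in fixed over live FRISCR cells. MCM3 had 103, 346 and 489 CPM in fixed FRISCR cells, against 268, 586 and 752 CPM in live FRISCR cells, and was 1.77-fold lower (1.74 to 1.81). Its log2 fold was -0.83 in one library set and -0.82 in the other, while the cells' ranges overlapped. The others were MCM2 at -0.64, MCM7 at -0.59, MCM4 at -0.24, MCM5 at -0.10 and MCM6 at 0.29, so 5 of 6 were below 0 with every scaling tried. MCM5 and MCM6 changed sign between the sets, and MCM6 was at -0.21 without 1 fixed cell. The summed TPM of the 6 subunits was 825 in fixed FRISCR and 1200 in live FRISCR cells.

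No GINS or primase gene passed 2-fold either. GINS1 had 79.9, 142 and 284 CPM in fixed FRISCR cells, against 42.5, 105 and 244 CPM in live FRISCR cells, with a summed level 1.59-fold higher (1.54 to 1.64) and log2 folds of 0.47 and 0.91 in the sets. GINS2 was at 0.33 (0.66 and 0.03), GINS4 at 0.24 (0.65 and -0.47) and GINS3 at 0.04 (-0.43 and 0.40). For polymerase alpha and primase, POLA1 was at 0.37, PRIM1 at 0.32, POLA2 at 0.29 and PRIM2 at 0.01, of which POLA2 and PRIM1 had the same sign in both sets. Without a single fixed cell each, POLA1 was at -0.07 and POLA2 at -0.11. The signs of GINS3 and PRIM2 turned with TMM scaling. E2F1 was at 0.55, a value that rests on 1 cell with 43.1% of the fixed sum; without that cell it was -0.11, and the sets gave -0.84 and 1.59.

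No remaining gene passed 2-fold in fixed over live FRISCR cells. Clamp and clamp loader genes ran from -0.69 (DSCC1, a subunit of the alternative CTF18 loader) through -0.63 (RFC1) and -0.24 (PCNA) to 0.28 (RFC2). DSCC1 (-0.58 and -0.79) and RFC1 (-0.48 and -0.79) were below 0 in both sets. POLD1 was at -0.51, SLBP at -0.42, POLE at -0.32, POLD3 at 0.06 and POLD2 at 0.21. RPA1, RPA2 and RPA3 were at -0.24, 0.15 and 0.31. Among lagging-strand and repair genes the range was -0.33 (UNG, the uracil glycosylase) to 0.24 (RNASEH2A, the catalytic subunit of RNase H2), and among nucleotide genes -0.48 (RRM1) to -0.03 (RRM2, 0.07 with DESeq2 size factors). CDC6, CDT1 and GMNN were at -0.47, -0.13 and -0.19, and only CDC6 had the same sign in both sets.

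**Figure D4:**
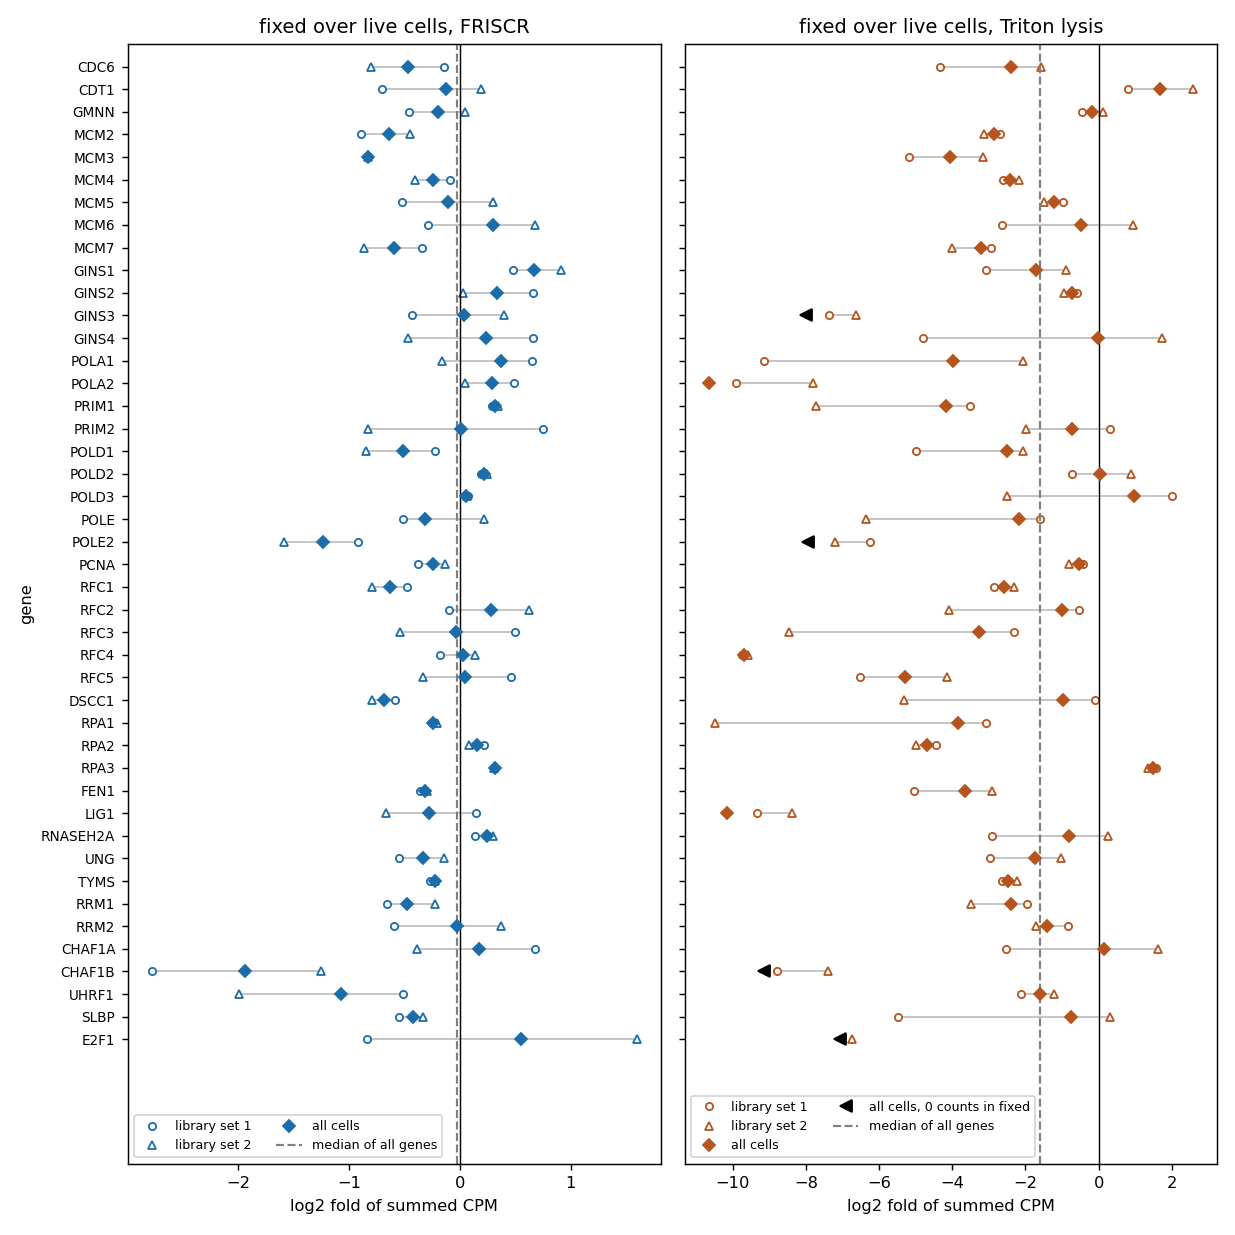
Log2 fold of summed CPM, fixed over live cells, for each of the 44 genes with FRISCR (left) and with Triton lysis (right); filled diamonds are all cells, open circles and triangles the 2 library sets, black triangles genes with 0 counts in fixed cells (set at 3 counts over the group, as are library sets with 0 counts), and dashed lines the median of all genes. The horizontal scales differ: the FRISCR folds lie between -1.94 and 0.67, and the Triton folds run from -10.65 to 1.68.

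In Triton lysates most replication transcripts were lower in fixed than in live cells. The median log2 fold was -2.40 (-2.85 and -2.27 in the sets), against -1.60 for all genes (-2.24 and -2.67 in the sets). In library set 2 the list thus lay above all genes. Lower by over 2-fold were 30 of the 44 genes (68.2%), against a background of 60.2%, and 2 were higher by as much (4.55%), against a background of 10.2%. In both sets as well, 25 were lower (background 48%) and 1 was higher (background 3.29%). Most genes of any kind were thus lower in fixed Triton cells, and the share for the list lay near that of all genes. With TMM the medians were -1.78 for the list and -0.97 for all genes, and with DESeq2 size factors -1.16 and -0.35; within a scaling all genes shift by the same amount. TMM turned 4 of the 44 folds above 0 (GMNN, MCM6, GINS4 and PCNA) and DESeq2 size factors 11, those 4 with MCM5, GINS2, PRIM2, RFC2, DSCC1, RNASEH2A and SLBP. In 9 of the 44 genes every fixed Triton cell was below every live Triton cell, against a background of 8.86%. They were MCM3, MCM7, POLA2, RFC4, RPA1, RPA2, FEN1, LIG1 and CHAF1B.

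The values in fixed Triton cells often rest on few cells. In 25 of the 44 genes, 1 cell held at least 50% of the group's counts, against 0 genes in fixed FRISCR, 0 in live FRISCR and 1 in live Triton cells. Leaving out a single cell moved the fold of 31 of the 44 genes by more than 1.5 times. No share of all genes is given for these counts, so they are not shown to be particular to the list. The sets differed in sign for 9 genes (GMNN, MCM6, GINS4, PRIM2, POLD2, POLD3, RNASEH2A, CHAF1A and SLBP). In both sets 32 of the 44 were below 0 (background 63.6%) and 2 above 0 (background 9.28%). The share of rRNA-named and abundant rows moved with the group (42.5% against 11.5%), and its part in these folds was not tested beyond the scalings above.

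Licensing genes parted in fixed Triton cells. CDT1 had 0.456, 42.5 and 73.1 CPM in 7 fixed Triton cells, against 1.81, 10.3 and 27.1 CPM in 11 live Triton cells. Of the fixed cells, 4 were above every live cell and 3 were below every one. The summed level was 3.21-fold higher (2.90 to 3.55), with log2 folds of 0.80 and 2.59 in the sets, above 0 with every scaling and with any 1 cell left out (1.35 to 1.93). It was 34.7 CPM in fixed Triton, 29.4 in fixed FRISCR, 32.1 in live FRISCR and 10.8 CPM in live Triton cells. By total counts live Triton cells were thus the group apart. TMM shifts all fixed FRISCR over fixed Triton folds by -0.71 and DESeq2 size factors by -1.17. With these scalings CDT1 in fixed Triton cells lay further above fixed FRISCR cells, so which group stands apart depends on the scaling. The CDT1 values below for live cells and for the difference of fixation effects share the live Triton cells. GMNN, the inhibitor of CDT1, had 54.0, 122 and 414 CPM in fixed Triton cells, against 76.6, 202 and 260 CPM in live Triton cells. Its log2 fold was -0.17 and turned to 0.45 with TMM and 1.07 with DESeq2 size factors. CDC6 had 0, 0.630 and 181 CPM in fixed Triton cells, against 38.8, 196 and 275 CPM in live Triton cells; it was 5.30-fold lower, and the cell with 181 CPM held 87.3% of the fixed sum.

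All 6 helicase subunits had lower sums in fixed Triton cells by total counts, 5 of them also with TMM and 4 with DESeq2 size factors. MCM3 had 16.7, 27.9 and 117 CPM in fixed Triton cells, against 337, 718 and 1093 CPM in live Triton cells. It was counted in all 7 fixed cells, yet the groups did not overlap, and its sum was 16.7-fold lower. MCM7 was at a log2 fold of -3.22, MCM2 at -2.87, MCM4 at -2.41 and MCM5 at -1.21. MCM6 was at -0.47 (0.15 with TMM), but 1 fixed Triton cell with 522 CPM held 82.9% of its sum; without that cell the fold was -2.78. With DESeq2 size factors MCM5 (0.04) and MCM6 (0.77) were above 0.

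GINS and primase subunits ranged widely. GINS3 had 0 counts in 7 fixed Triton cells, against 1519 counts in live Triton cells, so it was at least 255-fold lower (floor of 3 counts over the group); 2 live cells also had none. GINS2 was at -0.73 (0.51 with DESeq2 size factors) and GINS1 at -1.72. GINS4 was at -0.00 (0.62 with TMM), with 95.9% of its fixed sum in 1 cell of 366 CPM, and at -4.37 without it. POLA2, the regulatory subunit of polymerase alpha, had 1 count in all fixed Triton cells, against 3189 in live Triton cells, a ratio of 1608 (288 to 63513, counting interval). PRIM1, the catalytic primase subunit, was 18.0-fold lower with 2 of 7 fixed cells holding counts, and POLA1 15.9-fold lower, also with 2. PRIM2 was at -0.73 (0.52 with DESeq2 size factors), with counts in 6 of 7 fixed cells.

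Among the polymerases, the subunits of delta differed. POLD2 had 52.5, 206 and 404 CPM in fixed Triton cells, against 83.2, 206 and 419 CPM in live Triton cells, with a log2 fold of 0.05 and sets of -0.72 and 0.89. It was counted in all 7 fixed cells, and its spread over fixed cells, at a coefficient of variation of 0.631, was the lowest of the list. POLD3 had 0, 0.268 and 729 CPM in fixed Triton cells, against 0.928, 45.7 and 180 CPM in live Triton cells. Its log2 fold of 0.98 came from 1 cell with 95.5% of the counts and was -3.26 without that cell. POLD1, the catalytic subunit, was 5.65-fold lower, with 97.9% of its fixed counts in 1 cell. POLE2 had 0 counts in fixed Triton cells, against 1467 in live Triton cells (at least 246-fold lower), of which 8 of 11 had counts. POLE had 99.3% of its 151 fixed counts in 1 cell.

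The sliding clamp had a smaller fold than most of its loaders. PCNA had 0, 63.2 and 534 CPM in fixed Triton cells, against a median of 200 and a highest value of 350 CPM in live Triton cells, all of which had counts. It was 1.45-fold lower in sum, with similar folds in the sets (-0.43 and -0.82), but 3 of the 7 fixed cells were at or below 0.751 CPM and 1 cell held 57.7% of the counts. Its fold turned to 0.09 with TMM and to 0.71 with DESeq2 size factors. RFC4 had 4 counts over 3 fixed Triton cells, against 6563 counts in live Triton cells, a ratio of 827 (323 to 3036). RFC5 was 39.5-fold, RFC3 9.56-fold and RFC1 6.00-fold lower, and RFC2 2.01-fold lower with 84.0% of its fixed counts in 1 cell (log2 fold 0.24 with DESeq2 size factors). DSCC1 was at -0.96 (0.28 with DESeq2 size factors), with 97.8% of its fixed counts in 1 cell, and at -6.29 without it.

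RPA subunits went opposite ways. RPA3, the smallest subunit, had 21.8, 183 and 399 CPM in fixed Triton cells, against 42.2, 68.8 and 109 CPM in live Triton cells. In 5 of 7 fixed cells it was above every live cell, and in the other 2 it was below the lowest live cell. Its summed level was 2.81-fold higher (2.70 to 2.92), with log2 folds of 1.57 and 1.36 in the sets and 1.25 to 1.67 with any 1 cell left out. RPA2 had 0, 9.74 and 17.0 CPM in fixed Triton cells, against 139, 164 and 255 CPM in live Triton cells, and was 25.9-fold lower. RPA1, the large subunit, had 0, 0.210 and 205 CPM in fixed Triton cells, against 212, 347 and 486 CPM in live Triton cells, and was 14.3-fold lower, with 99.3% of its fixed counts in 1 cell. RPA3 was above 0, and RPA1 and RPA2 below 0, with every scaling.

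Of the genes that finish the lagging strand, LIG1, the ligase, had 2 counts in fixed Triton cells, both in 1 cell, against 4516 in live Triton cells, a ratio of 1138 (315 to 9401). FEN1, the flap nuclease, was 12.5-fold lower, UNG 3.35-fold lower and RNASEH2A 1.74-fold lower (log2 fold 0.45 with DESeq2 size factors). TYMS, RRM1 and RRM2 were 5.52-fold, 5.28-fold and 2.63-fold lower. CHAF1B had 0 counts in fixed Triton cells, against 3387 counts in live Triton cells, with counts in all 11 of those (at least 569-fold lower). CHAF1A was at 0.14, with 88.2% of its fixed counts in 1 cell, and at -2.69 without it. UHRF1 was at -1.61, and SLBP, which binds the end of histone mRNAs, at -0.76 (-3.66 without 1 cell, 0.49 with DESeq2 size factors). E2F1 had 0 counts, against 802 in live Triton cells, of which 1 cell held 52.9% (at least 135-fold lower). Only 6 of the 11 live Triton cells had E2F1 counts, with a median of 0.176 CPM over the 11.

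The fixation folds of both preparations were set against each other as the Triton fold minus the FRISCR fold. The median difference was -1.95 over the 44 genes, against -1.55 over 8540 genes, and was below -1 in 31 genes (background 59.3%) and above 1 in 2 (background 10%). POLA2 (-10.94), LIG1 (-9.87) and RFC4 (-9.72) had the lowest differences, and each had a FRISCR fold between -0.28 and 0.29. CDT1 (1.81), RPA3 (1.18) and POLD3 (0.92) had the highest. CDT1 and RPA3 kept the sign in both sets (1.25 and 1.05 for RPA3, and above 1 in both for CDT1), and POLD3 did not (1.92 and -2.58). GMNN had -0.17 in Triton and -0.19 in FRISCR cells, a difference of 0.02. These differences were not tested, since each group is 1 sample.

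Transcript length was set beside the folds. Over the 44 genes the Spearman correlation of the fixed over live Triton fold with length (count per TPM, relative) was -0.04, against -0.15 over all 8543 genes. The 9 genes in the shortest of 5 length bins had a median log2 fold of -0.73, against -0.22 for all genes of that bin, and the next 12 had -3.45, against -2.24. Genes are not independent of each other, and the longest bin held 2 of the listed genes.

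Live cells differed little by preparation. No listed gene (0 of 44) was lower by over 2-fold with FRISCR in live cells (background 3.45%), and 3 were higher by as much (6.82% of the list, background 6.88%). Of these 3, 1 (DSCC1) was also higher by over 2-fold in both library sets (background 2.74%). The median log2 fold was 0.18, against 0.10 for all genes. CDT1 had 0.232, 26.4 and 91.2 CPM in live FRISCR cells, against 1.81, 10.3 and 27.1 CPM in live Triton cells, and was 2.97-fold higher (2.72 to 3.25). DSCC1 had 0, 65.1 and 118 CPM in live FRISCR cells, against 0, 20.0 and 69.5 CPM in live Triton cells, and was 2.91-fold higher (2.73 to 3.10). POLE2 was 2.25-fold higher, and the cells of both groups overlapped for all 3. POLA1, at a log2 fold of -0.95, and CHAF1B, at -0.85, were the lowest, each below 0 in both sets. E2F1 was at 0.02, with opposite signs in the sets and a turned sign under TMM (-0.02).

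Fixed cells differed more by preparation. Higher by over 2-fold in fixed FRISCR than in fixed Triton cells were 32 of the 44 genes (72.7%, background 61.5%), and 0 were lower by as much (background 8.6%). The median was 2.23, against 1.64 for all genes. In the library sets it was 2.65 and 2.08, against 2.23 and 2.65 for all genes, so the order turned in set 2. MCM7, RFC4, RPA2 and LIG1 had every fixed FRISCR cell above every fixed Triton cell (background 4.24%). Below 0 were RPA3 (-0.90), POLD3 (-0.90), CHAF1A (-0.38), CDT1 (-0.24), POLD2 (-0.14) and GINS4 (-0.14), of which RPA3 and CDT1 kept the sign in both sets. CDT1 was at 0.10 without 1 fixed Triton cell, whereas RPA3 stayed below 0 with any 1 cell left out (-1.08 to -0.66). With DESeq2 size factors 13 genes were below 0, among them GMNN, MCM6, GINS2, PRIM2, PCNA, RFC2 and SLBP. This contrast shares its fixed cells with both fixation contrasts.

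Replication genes outside the list were looked at for comparison (72 rows, among them ORC subunits, CDC45, MCM10 and POLE4). In fixed over live FRISCR cells 4 of these were lower (5.56%, background 7.85%) and 2 higher (2.78%, background 3.84%) by over 2-fold, with a median of -0.23. In fixed over live Triton cells 44 were lower (61.1%, background 60.2%) and 1 higher (1.39%, background 10.2%), with a median of -1.59, against -1.60 for all genes, so the share lower and the median were near those of all genes. The lowest folds in fixed over live FRISCR cells with at least 10 CPM in the higher group were those of MCM8 (-1.35), WDHD1 (-1.25) and the mismatch repair gene MSH6 (-1.06), and the highest MTBP (1.40), ORC5 (1.34) and E2F3 (0.97). POLE4, the smallest polymerase epsilon subunit, had the highest fixed over live Triton fold, with 72.6 CPM in fixed Triton cells, against 14.2 CPM in live Triton cells (log2 fold 2.35; 3.72 and 1.24 in the sets).

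Among the cells of a group the 44 genes varied largely one by one. The median Spearman correlation over pairs of listed genes was 0.04 in 12 fixed FRISCR, 0.08 in 15 live FRISCR, 0.04 in 7 fixed Triton and 0.06 in 11 live Triton cells, against 0.00 over pairs of all genes in each group. Pairs of G2/M genes, a list of 49 genes with mitotic roles, had 0.20, 0.30, 0.04 and 0.34 in the same groups. The cells of a group shared the lysis, but they differed in depth and were split over the library sets. These correlations may therefore also hold differences of depth and library set. The coefficient of variation over cells had a median of 0.670 over the list in fixed FRISCR cells, 0.551 in live FRISCR, 1.43 in fixed Triton and 0.558 in live Triton cells. RFC2 was the most even gene in live FRISCR cells (0.198) and RPA2 in live Triton cells (0.239).

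Single genes differed in how they followed the rest of the list. The correlation with the mean of the other listed genes was highest in live FRISCR cells for UNG (0.79), FEN1 (0.72) and UHRF1 (0.66). In live Triton cells UNG had 0.25 and FEN1 -0.13. In fixed FRISCR cells UNG had 0.19, FEN1 -0.19 and UHRF1 0.17. In both live groups it was above 0.4 for SLBP (0.60 in FRISCR, 0.48 in Triton cells), E2F1 (0.46 and 0.47), UHRF1 (0.66 and 0.44), PRIM2 (0.55 and 0.43) and PCNA (0.41 and 0.55). CDT1 was below 0 in all 4 groups, at -0.27 in fixed FRISCR, -0.22 in live FRISCR, -0.21 in fixed Triton and -0.42 in live Triton cells. The 19 genes with an E2F string had a median of 0.27 and the 18 without one 0.26 in live FRISCR cells, and 0.17 and 0.05 in live Triton cells. Their median fixed over live folds were -0.22 with a string and -0.11 without in FRISCR, and -2.87 and -2.07 in Triton cells.

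The mean of the listed genes per cell, on the log2(CPM + 1) scale and over those with at least 10 CPM in the group (43 in fixed FRISCR, 44 in live FRISCR, 31 in fixed Triton and 44 in live Triton cells), was also set against the mean of other lists. With the G2/M list its Spearman correlation was -0.36 in fixed FRISCR and -0.69 in live FRISCR cells. In live FRISCR cells it was -0.64 and -0.71 in the sets, -0.76 to -0.63 with any 1 cell left out, and -0.77 without the 2 cells farthest from the median. In live Triton cells it was -0.01 over 11 cells, -0.49 in library set 2 and 0.68 without the 2 farthest, so it rests on which cells are taken. In 7 fixed Triton cells it was 0.36. With other replication genes the correlation was 0.66 in fixed FRISCR, 0.25 in live FRISCR, 0.50 in fixed Triton and 0.68 in live Triton cells, and without the 2 farthest cells 0.43, 0.31, -0.40 and 0.70. Pearson values with the G2/M list were -0.25, -0.69, 0.64 and -0.23 in the same order.

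**Figure D5:**
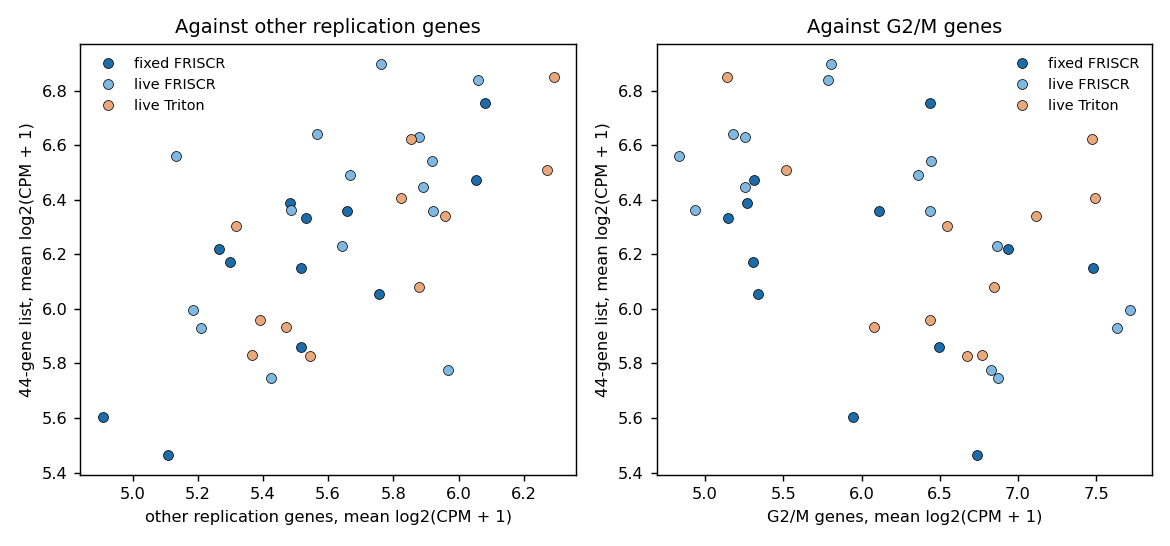
Mean log2(CPM + 1) of the 44-gene list in each cell (vertical) against that of other replication genes (left) and of G2/M genes (right); points are cells of 3 groups. Live FRISCR cells with high G2/M values tend to lie low on the vertical axis (Spearman -0.69 over 15 cells). In live Triton cells the value was -0.01 over 11 cells and -0.49 in library set 2.

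Genes outside both lists that followed the mean of the listed genes most closely in both live groups were screened among 3431 genes with at least 50 CPM. The highest by the smaller of both correlations were RPL38 (0.68 in live FRISCR, 0.75 in live Triton cells), FBXO5 (0.63 and 0.70), which inhibits the anaphase-promoting complex, GBAS (0.60 and 0.59) and PLAA (0.69 and 0.57). In fixed FRISCR cells the same genes had -0.39, -0.32, 0.10 and 0.01. The top of so many screened genes is a description of these cells only.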

How the data were processed

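Single H1 cells were converted to cDNA by Smart-seq2 and made into Nextera XT libraries, per the labels' protocols. The authors deposited a table of estimated counts (40.3% of nonzero values not whole) and a table of TPM, both with 23045 genes in 45 columns, each of which matched a sample. Per the submitters' processing notes, GRCh37 (hg19) was the genome. Which software aligned and quantified the reads, and with which gene models, is not given in the sources used here. How the authors assigned reads shared between genes is therefore unknown, and TPM levels rest on their lengths.

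Rounded counts were added up within each group and scaled by that group's total (CPM). Totals of 3388417 to 6594043 per cell set the precision. Each ratio has an exact 95% binomial interval, with a floor of 3 counts over the group for a sum of 0. No cell was left out, no doublet caller was run, and no pair of cells had identical values. Of 4 contrasts, each was also computed within both library sets, and folds past 2-fold were counted over the list and over 8543 genes that averaged 10 CPM or more over the 4 groups. Detection used cells thinned to 1000000 counts, and correlations used log2(CPM + 1). The procedure was tested on simulated data. Folds were simulated with counting error alone and no other variation between cells, so that test does not cover the spread over cells seen here. Python 3.11.15, pandas 2.3.3, scipy 1.17.1, edgeR 4.0.16 (TMM) and DESeq2 1.42.0 (size factors only) were used. Alternatives changed the scaling, unit, fold line, thinning, correlation measure, promoter strings and library set, or left out each cell; promoters of at least 60% GC, GENCODE lengths and leaving out the 2 farthest cells were added after the data were seen. Promoters came from RefSeq (GRCh38.p14) by symbol.

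The listed genes, the other lists and the rules were chosen with earlier results of these data known. Genes named in full were the most abundant of each role in live cells, the 4 highest and 4 lowest folds of each contrast, and the 3 largest differences of fixation effects each way. Others are named to account for all 44.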

Additional observations from a re-analysis of the deposited data

Results flagged for a closer look

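For the 7 fixed Triton cells, 25 values were looked at: the list's share of counts, its number of genes detected, and the level of each gene chosen by the naming rule that had counts there. In 13, all of them genes, 1 cell lay far above the rest by Dixon's criterion. Chance marks about 1 in 20 groups of normally spread replicates, a rate that does not hold for cells of 1 sample with many zeros, and several of these genes were named for folds that the same cells set. In replicate 1, POLD3 was at 728.6 CPM, with 31.2 CPM in the next cell. In replicate 2, PRIM1 was at 17.0 CPM (next 2.66). Replicate 3 held DSCC1 at 91.5 CPM (next 1.88) and RPA1 at 205.4 CPM (next 0.654). Replicate 4 held POLA2 at 0.250 and LIG1 at 0.500 CPM, with 0 in the other 6 cells, so these rest on 1 and 2 counts. In replicate 5, GINS1 was at 204.2 CPM (next 51.3). Replicate 6 held CHAF1A at 361.9 (next 52.5), UHRF1 at 86.6 (next 28.3) and SLBP at 159.0 CPM (next 20.4). Replicate 7 held MCM3 at 117.0 (next 45.1), POLA1 at 26.5 (next 3.22) and POLD1 at 43.6 CPM (next 0.630).

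The fixation fold had opposite signs in Triton and FRISCR cells, in both library sets, for 5 genes. The share of all genes that meet this rule is not given, so the 5 have no background. Of all genes, 63.6% were below 0 in both sets in Triton cells. In FRISCR cells 27.2% of all genes were above 0 in both sets. The Triton fold minus the FRISCR fold was -2.39 for GINS1, -1.07 for GINS2, -10.94 for POLA2, -4.49 for PRIM1 and -4.85 for RPA2 on the log2 scale. These differences were not tested. With DESeq2 size factors the Triton fold of GINS2 was above 0, so its signs no longer differed. Without 1 fixed FRISCR cell the FRISCR fold of POLA2 was -0.11, so its opposite sign rests on that cell.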

How the results depend on the processing

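No paired analysis was possible because the labels give the cells no shared replicate numbers; their numbers follow accession order only. In fixed over live FRISCR cells the median log2 fold of the list was -0.0169 with DESeq2 size factors, -0.20 with mean TPM, -0.26 in library set 1 and -0.18 in set 2, and -0.18 to -0.0741 with any 1 cell left out. The count of genes over 2-fold lower was 1 in set 1 and 2 to 3 with a cell left out, and that of genes over 2-fold higher was 1 in set 2 and 0 with any cell left out. At 1.5-fold 8 genes were lower and 1 higher (18.2% and 11.7% of all genes), and at 4-fold 0 were lower (1.23% of all genes).

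In fixed over live Triton cells the median was -1.78 with TMM, -1.16 with DESeq2 size factors, -2.88 with mean TPM, -1.79 without abundant rows, -2.85 in set 1 and -2.71 to -2.20 with a cell left out. Genes over 2-fold higher numbered 7 with DESeq2 size factors, 1 with mean TPM and 4 in set 2. At 4-fold 0 were higher (3.06% of all genes). With a cell left out, genes over 2-fold higher numbered 2 to 3 and genes over 2-fold lower 29 to 32.

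For FRISCR over Triton in live cells the median was 0.14 with TMM, 0.0792 without abundant rows, 0.15 in set 1 and 0.0900 to 0.23 with a cell left out. Over 2-fold lower were 1 without abundant rows, 3 in set 1, 1 in set 2 and 0 to 1 with a cell left out. Over 2-fold higher were 6 in set 1 and 2 to 4 with a cell left out. At 1.5-fold 2 were lower and 7 higher (10.4% and 17.8% of all genes), and at 4-fold 0 were higher (0.82%). For fixed cells the median was 1.52 with TMM, 1.05 with DESeq2 size factors, 1.52 without abundant rows, 2.65 in set 1 and 2.09 to 2.46 with a cell left out. Over 2-fold lower were 3 with TMM, 6 with DESeq2 size factors, 3 without abundant rows and 2 in each set. At 1.5-fold 2 were lower (13.1% of all genes). With a cell left out 0 to 2 were over 2-fold lower and 31 to 34 over 2-fold higher. No share of all genes is given for counts within 1 library set, with another scaling or unit, or with a cell left out. The median difference of fixation effects was -1.28 with TMM, -0.80 with DESeq2 size factors, -1.35 without abundant rows, -2.60 in set 1 and -2.32 to -1.76 with a cell left out.

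In the authors' TPM the list held 0.462% in fixed FRISCR, 0.543% in live FRISCR, 0.119% in fixed Triton and 0.519% in live Triton cells. Without abundant rows it held 0.344% of counts in fixed Triton cells, where 29 genes were detected without thinning. The pairwise correlation in fixed FRISCR cells was 0.0175 for genes of at least 50 CPM, and with a cell left out it was 0.0273 to 0.0455 there, 0.0593 to 0.0989 in live FRISCR, -0.0286 to 0.0857 in fixed Triton and 0.0424 to 0.0788 in live Triton cells. The correlation of the list's mean with G2/M genes in fixed FRISCR cells was -0.66 in set 1, and with other replication genes 0.14 in set 1 and 0.89 in set 2. Without the 2 farthest cells the correlation with other replication genes was 0.43 in fixed FRISCR and -0.40 in fixed Triton cells, and that with G2/M genes 0.68 in live Triton cells. Of these summary results 516 alternatives stayed within the spread or 1.5 times and 87 moved; of single genes 146 stayed and 173 moved. Apart from the scalings' own construction, the cause was not tested. Few counts per gene and 7 cells limit the precision of the fixed Triton values.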

Other observations

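Mitotic genes were set beside the replication genes as the other proliferation list. In fixed over live Triton cells 42 of 49 G2/M genes were lower by over 2-fold and 1 was higher, against a background of 60.2% lower and 10.2% higher. Their median log2 fold was -3.26, below the -2.40 of the 44 replication genes, and -0.11 in fixed over live FRISCR cells. TMM raises all Triton folds by 0.63 and DESeq2 size factors by 1.25, which leaves both Triton medians below 0.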
